A study of Sus scrofa with 9 samples.

Results

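Creatine kinases, the creatine supply genes, adenylate kinase and the AMP deaminases form the phosphotransfer system of heart muscle. The 9 genes described here (CKM, CKB, CKMT2, SLC6A8, GATM, GAMT, AK1, AMPD1 and AMPD3) were taken by name from the 22629 rows of a table of transcript abundance in neonatal pig heart, and each was found once. The left ventricular myocardium came from wild type pigs without treatment at postnatal day 0 (P0, the newborn), day 7 (P7) and day 15 (P15), with 3 libraries per age. Each library carries an age and a number from its label: 4, 5 and 6 at P0, 2, 5 and 6 at P7, and 1, 2 and 6 at P15. Nothing in the labels ties each library to its own animal, and p-values measure only the spread between these samples. Values are TPM, a share of a library's transcripts scaled by transcript length, and can be compared between genes.

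As background, creatine kinase moves a phosphate group between ATP and creatine. The mitochondrial form loads creatine with phosphate where ATP is made, and cytosolic forms return the phosphate to ADP beside the contractile filaments and ion pumps. Adenylate kinase recovers ATP from a pair of ADP molecules and leaves AMP, which AMP deaminase turns into IMP. The heart imports most of its creatine from the blood, where it arrives from synthesis in kidney and liver. In rodents the heart shifts after birth from the brain-type to the muscle-type cytosolic creatine kinase.

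Across the libraries 11290 to 12164 rows reached 1 TPM, and sequencing depth is unknown because TPM keeps no record of it. A single unnamed row took 24.0% (P0 replicate 6) to 46.0% (P15 replicate 1) of all TPM, and mitochondrially encoded transcripts took 16.5% to 24.6%. The labelled tissue was checked against 8 heart muscle markers, each at 1 TPM or more in every library, with summed levels of 49339 to 58202 TPM at P0, 49105 to 55495 TPM at P7 and 46194 to 57410 TPM at P15. None of the 8 passed the test between any pair of ages. Of 8 fast skeletal muscle markers found, 6 stayed below 1 TPM in every library.

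The cytosolic creatine kinases changed in opposite directions after birth. CKB, the brain-type subunit, fell at P7 and was lower at P15 too than in the newborn, while CKM, the muscle-type subunit, rose at P7 and stood higher again, on average, at P15. At P0 the transcripts were at similar levels, and in every later library CKM was several times more abundant than CKB. CKMT2, the mitochondrial form, was the most abundant member throughout and did not pass the test in any comparison. The creatine transporter, GAMT of creatine synthesis, adenylate kinase 1 and AMPD3 also did not pass, and GATM and AMPD1 were too low to be tested.

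CKB had 136, 180.2 and 185 TPM in P0 replicates 4, 5 and 6. It had 30.6, 35.7 and 13.3 TPM in P7 replicates 2, 5 and 6, and 111, 26.4 and 39.8 TPM in P15 replicates 1, 2 and 6. Every newborn library lay above every later one, and P15 replicate 1 stood far above the other P15 libraries without reaching the newborn range. The P7 level averaged 26.5 ± 11.7 TPM against 167 ± 26.9 TPM at P0 (SD, n = 3 each). On the log2(TPM + 1) scale the change was -2.71 ± 0.45 (SE), with a limma adjusted p of 0.00519, and the fitted level was 6.53-fold lower. Only 12 of the 12268 genes tested had a lower log2 fold change than CKB in that comparison. Its call was kept in each of 21 alternative settings, with log2 fold changes from -2.97 to -2.29. In bulk tissue, fewer cells of a type and less RNA per cell cannot be told apart.

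At P15 CKB averaged 59.0 ± 45.4 TPM, against 167 ± 26.9 TPM at P0. It was lower by the test (log2 fold change -1.74 ± 0.45 SE, limma adjusted p = 0.0179). That call depended on the processing, and was lost in 7 of 21 alternatives, namely without P0 replicate 6 (limma adjusted p = 0.0798), without P15 replicate 6 (0.0605), with no filter (0.0604), with a robust fit (0.0586) and with 3 of the 4 other scalings (0.0568 to 0.0668). Without P15 replicate 1, the library with the high CKB, the change was -2.32 with a limma adjusted p of 0.00396. Between P15 and P7, CKB averaged 59.0 and 26.5 TPM and the libraries overlapped. The log2 fold change was 0.97 ± 0.45 (SE) and did not pass (limma adjusted p = 0.395), and it was 0.39 without P15 replicate 1.

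CKM had 187, 170.0 and 174 TPM in P0 replicates 4, 5 and 6, a narrow range. It had 406, 311 and 252 TPM in P7 replicates 2, 5 and 6, and 537, 369 and 558 TPM in P15 replicates 1, 2 and 6. The newborn libraries lay below all 6 later ones, whereas the P15 and P7 ranges overlapped through P15 replicate 2 and P7 replicate 2. The P15 level was 488 ± 104 TPM against 177 ± 8.99 TPM at P0 (SD, n = 3 each), a log2 fold change of 1.44 ± 0.21 (SE), or 2.71-fold, with a limma adjusted p of 0.00186. This call held in each of 21 alternatives (1.33 to 1.73).

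At P7 CKM averaged 323 ± 77.5 TPM, against 177 ± 8.99 TPM at P0, with a log2 fold change of 0.84 ± 0.21 (SE) and a limma adjusted p of 0.0220. The direction was the same in each of 21 alternatives (0.66 to 1.06). The call was lost without P0 replicate 4 (limma adjusted p = 0.0645), without P0 replicate 6 (0.0906) and without P7 replicate 2 (0.0762). It was also lost with the replicate number as a block (0.0885). Between P15 and P7 the means were 488 and 323 TPM, and the log2 fold change of 0.60 ± 0.21 (SE) did not pass (limma adjusted p = 0.281).

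**Figure D1:**
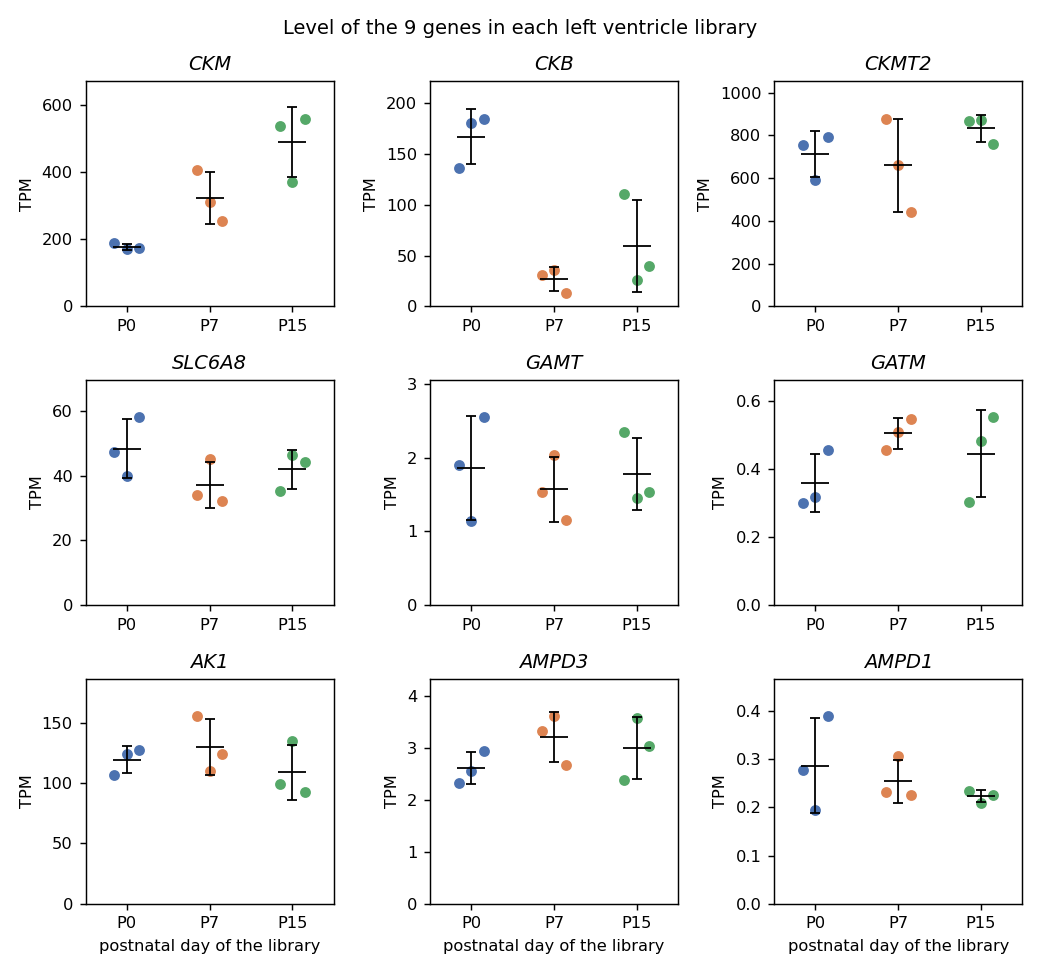
Level of each of the 9 genes in TPM (linear axis from 0) in the 3 libraries of each age; points are libraries, the horizontal bar is the mean and the whiskers are the SD. CKM lay at 170.0 to 187 TPM at P0 and above 252 TPM at both later ages, CKB lay above 136 TPM at P0 and at 13.3 to 111 TPM later, and the other genes overlapped between ages, apart from GATM at P7, which stayed below 1 TPM.

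A ratio of transcripts within a library does not depend on the library total. The CKM to CKB ratio of TPM was 1.37, 0.943 and 0.940 in P0 replicates 4, 5 and 6. It was 13.3, 8.71 and 19.0 in P7 replicates 2, 5 and 6, and 4.84, 14.0 and 14.0 in P15 replicates 1, 2 and 6. All later ratios lay above all newborn ones, with P15 replicate 1 the lowest of them. CKM made up 51.6 ± 5.42% of the cytosolic creatine kinase transcripts at P0, 92.6 ± 2.67% at P7 and 89.9 ± 6.04% at P15 (SD, n = 3 each). The sum of CKM and CKB was 323 to 359 TPM at P0 and 266 to 437 TPM at P7, so that the cytosolic total overlapped between these ages while its makeup did not. At P15 the sum was 396 to 648 TPM, above every newborn library.

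CKMT2, the muscle form of mitochondrial creatine kinase, had 752, 590.5 and 792 TPM in P0 replicates 4, 5 and 6. It had 878, 661 and 443 TPM in P7 replicates 2, 5 and 6, and 867, 869.6 and 759 TPM in P15 replicates 1, 2 and 6. The P7 libraries were spread over the whole range of the other ages, and no pair of ages separated. The log2 fold changes were -0.15 ± 0.23 (P7 over P0), 0.38 ± 0.23 (P15 over P7) and 0.23 ± 0.23 (P15 over P0), with limma adjusted p-values of 0.671, 0.506 and 0.478. CKMT2 ranked 89th by mean TPM among the 22629 rows, and CKM ranked 193rd. CKMT2 exceeded CKM in all 9 libraries, by 3.47 to 4.56 times at P0, 1.76 to 2.16 times at P7 and 1.36 to 2.35 times at P15. The CKMT2 to CKM ratio was thus lower in every later library than in every newborn library. The other mitochondrial isoform, sought as CKMT1A, CKMT1B and CKMT1, was not found by name among the 22629 rows.

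Set against the 8 heart muscle markers, the pattern of the cytosolic isoforms was the same. CKM came to 2.99 to 3.60 TPM per 1000 TPM of the marker sum at P0, 5.14 to 7.41 at P7 and 6.43 to 11.6 at P15. CKB came to 2.62 to 3.65 per 1000 at P0, 0.271 to 0.643 at P7 and 0.459 to 2.40 at P15, again with no overlap between newborn and later libraries. The upper P15 value is that of replicate 1.

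Some markers of smooth muscle and pericytes moved with CKB, and others did not. Of 8 smooth muscle and pericyte markers tested, 0 rose and 2 fell at P7 against P0 (ACTA2 and TAGLN). At P15 against P0, 0 rose and 5 fell (MYH11, ACTA2, TAGLN, CNN1 and PDGFRB). The pericyte marker RGS5 went the other way at P7, at 68.1 to 89.0 TPM against 43.2 to 64.8 TPM at P0. Its log2 fold change of 0.54 did not pass (limma adjusted p = 0.0835), and it was 0.16 at P15 over P0. PDGFRB and KCNJ8 also did not pass at P7 (-0.07 and -0.27). The summed level of the 8 markers was 1456 to 2791 TPM at P7, 1682 to 2183 TPM at P15 and 2052 to 4559 TPM at P0. Most of it was DES, which heart muscle also expresses. Without DES the sum was 468 to 683 TPM at P0 and 329 to 436 TPM at P7. At P15 it was 302 TPM in replicate 1, beside 279.6 and 279.5 TPM in the other P15 libraries. The part of these cells in the CKB result was not tested.

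**Figure D2:**
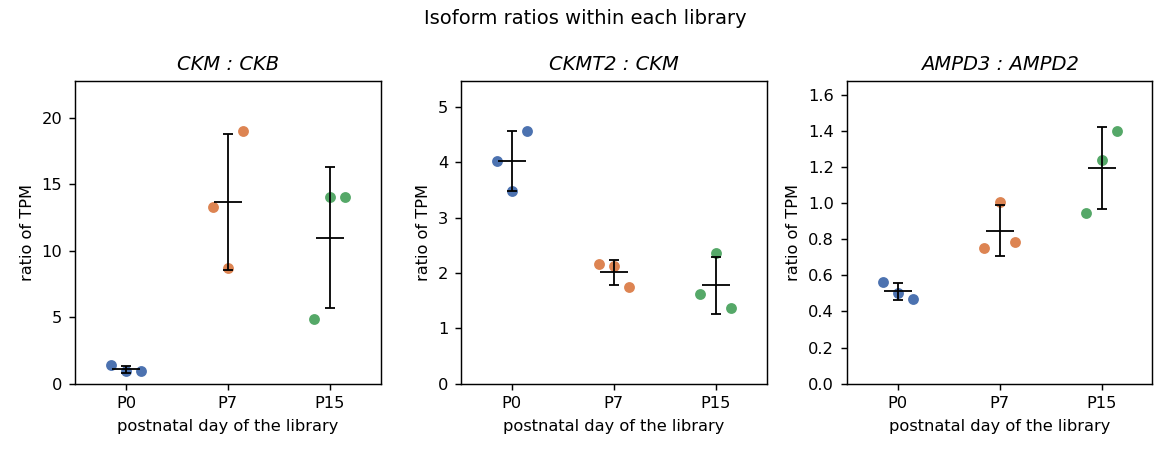
Ratios of TPM within each library (linear axes from 0) for CKM to CKB, CKMT2 to CKM and AMPD3 to AMPD2, with 3 libraries per age as points, the mean as a bar and the SD as whiskers. The CKM to CKB ratio lay at 0.940 to 1.37 at P0 and at 4.84 or more in all 6 later libraries, and the CKMT2 to CKM ratio lay at 3.47 or more at P0 and at 2.35 or less later.

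Creatine reaches muscle through SLC6A8, the plasma membrane creatine transporter. SLC6A8 had 47.2, 39.8 and 58.1 TPM in P0 replicates 4, 5 and 6, 34.1, 45.1 and 32.2 TPM in P7 replicates 2, 5 and 6, and 35.1, 46.5 and 44.2 TPM in P15 replicates 1, 2 and 6. The ages overlapped, and the largest of its differences, P7 over P0 at -0.37 ± 0.20 (SE, log2), did not pass (limma adjusted p = 0.211). The P15 over P0 difference was -0.19 and turned to between 0.05 and 0.09 under 3 of the 4 other scalings.

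The synthesis enzymes were near the floor of the measurement. GATM, which makes guanidinoacetate from arginine and glycine, had 0.301, 0.317 and 0.456 TPM at P0, 0.457, 0.509 and 0.548 TPM at P7 and 0.303, 0.481 and 0.552 TPM at P15. It did not reach 1 TPM in any library and was not tested. Its P7 libraries lay above its newborn ones by less than 0.01 TPM at the nearest point. GAMT, which methylates guanidinoacetate to creatine, had 1.91, 1.14 and 2.55 TPM at P0, 1.53, 2.04 and 1.15 TPM at P7 and 2.35, 1.46 and 1.54 TPM at P15. Its ages overlapped, and its limma adjusted p-values were 0.692, 0.865 and 0.944 for P7 over P0, P15 over P7 and P15 over P0. The transporter was 58.7 to 157 times as abundant as GATM, in TPM, over the 9 libraries.

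AK1, the main cytosolic adenylate kinase of striated muscle, had 107, 124 and 128 TPM in P0 replicates 4, 5 and 6. It had 156, 109.7 and 124 TPM in P7 replicates 2, 5 and 6, and 99.5, 135 and 92.8 TPM in P15 replicates 1, 2 and 6. All ages overlapped, and the log2 fold changes were 0.11 ± 0.20 (P7 over P0), -0.25 ± 0.20 (P15 over P7) and -0.14 ± 0.20 (P15 over P0), with limma adjusted p-values of 0.722, 0.610 and 0.611. The P15 over P0 sign was positive under each of the 4 other scalings. With CKM higher at the later ages, AK1 came to 0.570 to 0.735 of the CKM level at P0, 0.353 to 0.493 at P7 and 0.166 to 0.366 at P15.

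AMP deaminase was represented by AMPD3, the isoform first described in red cells, and AMPD1, the skeletal muscle isoform. AMPD3 had 2.33, 2.56 and 2.95 TPM at P0, 3.34, 3.62 and 2.68 TPM at P7 and 2.38, 3.59 and 3.04 TPM at P15, with all ages overlapping. Its log2 fold changes were 0.22 ± 0.18 (P7 over P0, limma adjusted p = 0.420), -0.08 ± 0.18 (P15 over P7, 0.883) and 0.14 ± 0.18 (P15 over P0, 0.601). It passed in 1 scaling for P7 over P0 (limma adjusted p = 0.0478) and in another for P15 over P0 (0.0444). AMPD1 stayed between 0.194 and 0.389 TPM in all 9 libraries and was not tested, and 6 of the 8 fast skeletal muscle markers found were also below 1 TPM in every library. The other two were MYL1, at 0.332 to 1.82 TPM, and CASQ1, at 1.85 to 10.7 TPM. Erythroid markers, led by HBB, summed to 395 to 1267 TPM at P0, 555 to 1219 TPM at P7 and 435 to 660.3 TPM at P15. Of 4 erythroid markers tested, 1 rose (GYPC) and 0 fell at P7 and at P15, each against P0. The GYPC log2 fold changes were 0.96 and 1.03 (limma adjusted p = 0.0226 and 0.0122). The part of red cells in the AMPD3 level was not tested.

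The order of levels differed between ages only around CKB. By mean TPM at P0, CKMT2 was followed by CKM, CKB, AK1, SLC6A8, AMPD3, GAMT, GATM and AMPD1, with overlap between CKM and CKB, between AMPD3 and GAMT, and between GATM and AMPD1. At P7 CKB came after SLC6A8, which it overlapped. At P15 CKB stood between AK1 and SLC6A8 and overlapped each of them. The levels of CKMT2, CKM and AK1 did not overlap at P7 or at P15.

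Of the 7 members tested, 28.6% passed at P7 and 28.6% at P15, each against P0. At P7 against P0, 1 rose (CKM) and 1 fell (CKB), while 16.6% of the 12268 genes tested passed, 7.67% upward and 8.88% downward. At P15 against P0 it was again CKM up and CKB down, with 23.9% of all genes passing, 5.53% upward and 18.4% downward. These comparisons share the newborn libraries, and P7 is shared by the first and second steps. At P15 against P7, 0 of 7 passed by limma, with 0.171% of all genes passing, and at an unadjusted p under 0.05 it was 1 of 7 (CKM), with 12.8% of all genes. Non-overlap between ages was common in the table. CKM lay wholly above the newborn libraries at P7 and P15, as did 17.6% and 9.45% of genes, and CKB lay wholly below them, as did 23.8% and 30.5% of genes. No tested member separated P15 from P7, where 19.4% of genes did. The median log2 fold change of the 7 members was -0.14 (P7 over P0), 0.18 (P15 over P7) and -0.03 (P15 over P0), beside -0.04, -0.15 and -0.19 over all genes tested. Leaving the mitochondrial and the 20 most abundant genes out of the total moved the medians over all genes to 0.11 (P7 over P0) and 0.02 (P15 over P0), and the upward share of calls to 65.6% and 50.6%. CKM and CKB kept their direction against P0 under each of the 4 other scalings.

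The F test over the 3 ages passed for CKM (F = 23.2, limma adjusted p = 0.00414) and CKB (F = 18.4, limma adjusted p = 0.00697), and for none of the other 5 tested members, beside 22% of all genes tested. The limma test of the step to P7 minus the step to P15 passed for CKB alone among the 7 (-3.68 ± 0.78 on the log2 scale, limma adjusted p = 0.0371), beside 1.92% of all genes. That is, the log2 change of CKB over the first week (-2.71) and over the second (0.97) differed by the test. This call was lost in 12 of 20 alternatives (limma adjusted p from 0.0258 to 0.150), among them the fits without any 1 of P0 replicates 4 and 6, P7 replicates 2, 5 and 6, or P15 replicate 6, and its sign stayed the same. For CKM the steps did not differ by the test (0.24 ± 0.37 SE, limma adjusted p = 0.782).

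**Figure D3:**
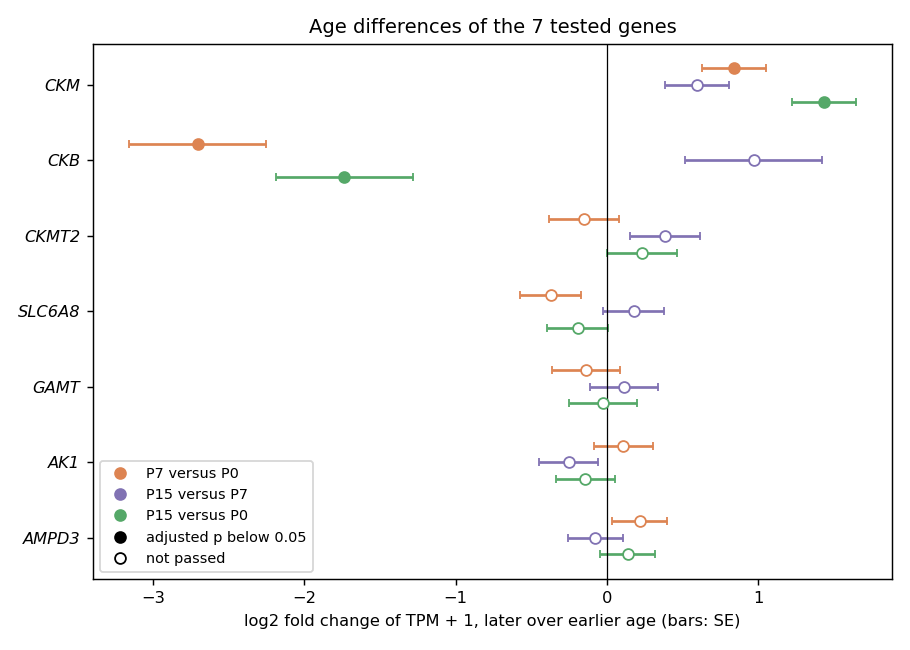
Log2 fold change of TPM + 1 (horizontal axis, later over earlier age) for the 7 tested members in 3 comparisons, with the SE as bars; filled points passed a limma adjusted p of 0.05. Only CKM and CKB have filled points, CKB at -2.71 (P7 over P0) and -1.74 (P15 over P0) and CKM at 0.84 and 1.44.

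Genes around the members were read from lists of adenine nucleotide handling, with the members left out. Of 65 listed symbols, which include aliases, 56 were found and 51 tested. At P7 against P0, 7 rose and 8 fell, or 29.4% against 16.6% of all genes. At P15 against P0, 3 rose and 13 fell, or 31.4% against 23.9% of all genes, and at P15 against P7, 0 of 51 passed, against 0.171% of all genes. The median log2 fold change of the 51 was -0.15 at P7 over P0 and -0.32 at P15 over P0, beside -0.04 and -0.19 over all genes.

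Of the 3 tested carriers that exchange ATP for ADP across the inner mitochondrial membrane, SLC25A4 and SLC25A5 fell and SLC25A6 did not pass. SLC25A4, the muscle isoform of the adenine nucleotide translocase and the most abundant of these genes, had 2650.1 ± 485 TPM at P7 and 2924 ± 294 TPM at P15, against 4893 ± 1202 TPM at P0. Its log2 fold changes were -0.87 (limma adjusted p = 0.0199) and -0.72 (0.0301), and the calls were lost in 6 and 10 of 21 alternatives. Without P0 replicate 4 or 6 the limma adjusted p was 0.0839 or 0.105 at P7 and 0.103 or 0.151 at P15, without P7 replicate 5 or 6 it was 0.0502 or 0.0622 at P7, and without P15 replicate 1 or 6 it was 0.0513 or 0.110 at P15. SLC25A5, the isoform of proliferating cells, had 30.6 ± 6.78 TPM at P7 and 29.5 ± 9.54 TPM at P15, against 98.9 ± 34.0 TPM at P0 (log2 fold changes -1.62 and -1.69, limma adjusted p = 0.00641 and 0.00367). Both SLC25A5 calls were kept in all 21 alternatives. SLC25A6, named after its values were seen, had 843 ± 241 TPM at P7 and 692 ± 150.1 TPM at P15, against 799 ± 249 TPM at P0 (log2 fold changes 0.08 and -0.18, limma adjusted p = 0.852 and 0.654). Of 9 tested genes in this list, 1 rose and 3 fell at P7, and 0 rose and 2 fell at P15, each against P0. The further P7 calls were SLC25A23 (log2 fold change 0.66) and SLC25A25 (-0.86), calcium-sensitive carriers of ATP-Mg and phosphate, named after their values were seen.

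In the purine nucleotide cycle, which returns IMP to AMP, 0 of 4 tested non-members passed at P7 and 3 fell at P15 against P0. AMPD2, the broadly expressed AMP deaminase, had 2.53 ± 0.36 TPM at P15 against 5.17 ± 1.06 TPM at P0 (log2 fold change -0.80, limma adjusted p = 0.0115, lost without P0 replicate 6 at 0.0639 and without P15 replicate 6 at 0.0576). ADSL, adenylosuccinate lyase, had 22.8 ± 2.71 TPM at P15 against 38.3 ± 2.35 TPM at P0 (log2 fold change -0.73, limma adjusted p = 0.0108). The ADSL call was lost without P0 replicate 6 (0.0560) and with the replicate number as a block (0.16). ADSSL1, the muscle adenylosuccinate synthase and the most abundant of the 4, had 77.4 ± 8.65, 62.2 ± 3.72 and 70.6 ± 6.14 TPM at P0, P7 and P15 and did not pass. The remaining call was ADSS, its broadly expressed counterpart (-0.53), named after its value was seen. The AMPD3 to AMPD2 ratio of TPM was 0.471 to 0.562 at P0, 0.750 to 1.01 at P7 and 0.945 to 1.40 at P15. Newborn libraries did not overlap the later ones in this ratio. AMPD2 was the more abundant in all 3 newborn libraries, in P7 replicates 2 and 6 (0.750 and 0.783) and in P15 replicate 1 (0.945).

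Cytosolic AMP can also be cut to adenosine. NT5C1A, the AMP-selective cytosolic nucleotidase of heart and skeletal muscle, had 6.62 ± 2.28 TPM at P7 and 5.25 ± 2.10 TPM at P15, against 1.02 ± 0.52 TPM at P0. Its log2 fold changes of 1.90 and 1.60 passed (limma adjusted p = 0.00431 and 0.00483) and were kept in each of 20 alternatives. Of the newborn libraries only replicate 6 reached 1 TPM (1.58 TPM). NT5C1A therefore passed the filter through the ages where it was high, and its calls carry that selection. ADK, adenosine kinase, which returns adenosine to AMP, had 4.24 ± 0.57 TPM at P7 and 3.75 ± 0.90 TPM at P15, against 8.33 ± 0.33 TPM at P0. Its log2 fold changes were -0.84 and -0.99 (limma adjusted p = 0.0128 and 0.00471). The P7 call was lost without P0 replicate 6 (0.0554), without P7 replicate 2 (0.0503) and with the replicate number as a block (0.0574). With that block the P15 call of ADK was lost too (0.0957). Of the 10 genes tested in this list, 2 rose and 1 fell at P7, and 1 rose and 2 fell at P15, each against P0. ADA, adenosine deaminase, rose at P7 (0.60) and PNP, purine nucleoside phosphorylase, fell at P15 (-0.81), both named after their values were seen. APRT, the adenine salvage enzyme and the most abundant of the 10, had 37.3 ± 4.64, 39.3 ± 10.9 and 33.2 ± 7.00 TPM at P0, P7 and P15 and did not pass.

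Among the other adenylate kinases, levels were far below AK1. AK3, the matrix GTP:AMP kinase and the most abundant of them, had 12.6 ± 3.01, 7.69 ± 0.31 and 9.74 ± 3.38 TPM at P0, P7 and P15 and did not pass. AK6 fell and AK8 rose at P7 and at P15 against P0. AK6 lay at 0.836 to 5.06 TPM over all libraries. AK8 had 0.22 ± 0.09 TPM at P0, 1.01 ± 0.04 TPM at P7 and 1.22 ± 0.28 TPM at P15. AK8 reached 1 TPM only in libraries of the later ages. It therefore passed the filter through the ages where it was high, and its calls carry that selection. The log2 fold changes were -0.81 and -0.95 for AK6 and 0.72 and 0.86 for AK8, and the P7 calls were lost in 7 (AK6) and 4 (AK8) of 20 alternatives. The P15 calls were lost in 2 (AK6) and 1 (AK8) of 20, including that of AK6 without P0 replicate 6 (limma adjusted p = 0.0673). NME2, the most abundant nucleoside diphosphate kinase, did not pass (limma adjusted p = 0.0879 and 0.104 for P7 and P15 over P0). NME1 fell, to 7.42 ± 2.59 TPM at P7 and 5.84 ± 1.49 TPM at P15, against 14.1 ± 1.26 TPM at P0, with log2 fold changes of -0.88 and -1.17 (limma adjusted p = 0.0267 and 0.00668). The P7 call of NME1 was lost without P0 replicate 4 or 6 (limma adjusted p = 0.0633 or 0.107), P7 replicate 5 or 6 (0.0855 or 0.0946) and with no filter (0.0612), and its P15 call in none of 21 alternatives. NME3 rose at P7 (0.92, limma adjusted p = 0.0216, lost in 6 of 20 alternatives) and not at P15. NME1 and NME2 are close paralogs, so the split of reads between them is uncertain.

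The list of AMP-activated protein kinase, the sensor of AMP, held 7 tested subunits and 3 genes of its upstream kinase complex (STK11, CAB39 and STRADA). Of these 10, 1 rose (STRADA) and 1 fell (PRKAG2) at P7, and 0 rose and 2 fell (PRKAG1 and PRKAG2) at P15, each against P0. PRKAG2, a regulatory subunit abundant in heart, had 15.8 ± 8.06 TPM at P7 and 14.8 ± 4.03 TPM at P15, against 32.6 ± 9.36 TPM at P0 (log2 fold changes -1.07 and -1.08, limma adjusted p = 0.0480 and 0.0365, lost in 9 and 10 of 21 alternatives). Without P0 replicate 4 or 6 its limma adjusted p was 0.131 or 0.185 at P7 and 0.0939 or 0.159 at P15, and it was 0.0598 to 0.167 at P7 without P7 replicate 2, P7 replicate 6 or P15 replicate 6, and 0.117 and 0.0681 at P15 without P15 replicates 1 and 6. PRKAG1, the broadly expressed regulatory subunit, fell at P15 (-0.62, limma adjusted p = 0.0143). The PRKAG1 call was lost without P0 replicate 6 (0.0702), without P15 replicate 6 (0.0576) and with the replicate number as a block (0.167). STRADA, a partner of the upstream kinase STK11, passed at P7 (0.63, limma adjusted p = 0.0498) and was lost in 11 of 21 alternatives. STK11 itself, the most abundant of the 10, had 96.2 ± 11.9, 97.1 ± 6.11 and 91.2 ± 21.4 TPM at P0, P7 and P15 and did not pass.

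Of 4 listed ATP-sensitive potassium channel genes, 3 were found and 2 tested, and 1 rose at each later age. KCNJ11, the other pore subunit listed, was not found by name, and ABCC8 was too low to be tested. ABCC9, the regulatory subunit of the ATP-sensitive potassium channel in heart and vessels, had 19.4 ± 3.64 TPM at P7 and 16.2 ± 3.59 TPM at P15, against 9.53 ± 0.78 TPM at P0. Its P7 rise (0.94, limma adjusted p = 0.0110) was kept in all 21 alternatives, and its P15 rise (0.69, limma adjusted p = 0.0262) was lost in 5, including those without any 1 of the P0 libraries (limma adjusted p = 0.0591 to 0.0728) and without P15 replicate 6 (0.126). KCNJ8, a pore subunit with the higher mean over all 9 libraries but not at P7, lay between 14.3 and 25.0 TPM over the 9 libraries and did not pass.

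In the methyl donor cycle that serves creatine synthesis, 6 genes were tested, with 0 rising, 1 falling at P7 and 2 falling at P15, each against P0. GNMT, which spends methyl groups on glycine, had 1.08 ± 0.21 TPM at P7 and 1.01 ± 0.17 TPM at P15, against 2.59 ± 0.12 TPM at P0. Its log2 fold changes were -0.79 and -0.84 (limma adjusted p = 0.0108 and 0.00612). The P7 call of GNMT was lost without P0 replicate 6 (0.0501). With the replicate number as a block both GNMT calls were lost (0.0546 at P7 and 0.0664 at P15). MAT2A, which makes S-adenosylmethionine, had 78.9 ± 13.9 TPM at P15 against 135 ± 25.6 TPM at P0 (log2 fold change -0.77, limma adjusted p = 0.0189). The MAT2A call was lost in 5 of 21 alternatives, among them the fits without P0 replicate 4 (0.0566), P0 replicate 6 (0.10), P15 replicate 1 (0.0595) and P15 replicate 6 (0.0572).

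**Figure D4:**
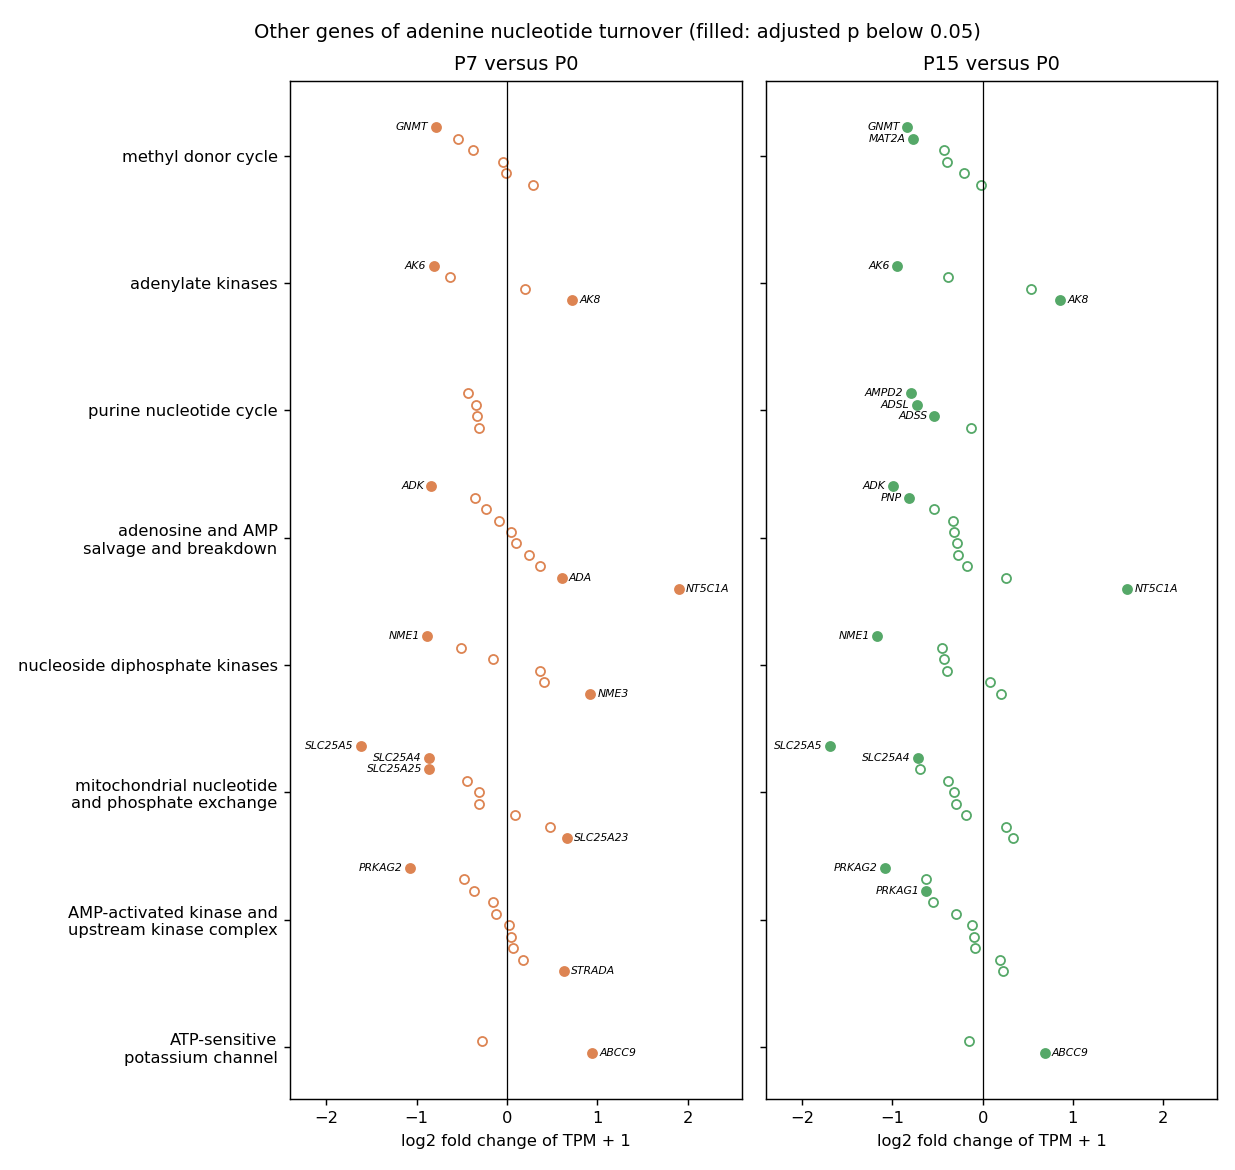
Log2 fold change of TPM + 1 (horizontal axis) for the 51 tested non-member genes by list, at P7 over P0 (left) and P15 over P0 (right); filled and named points passed a limma adjusted p of 0.05. NT5C1A is the highest point on both sides, at 1.90 and 1.60, and SLC25A5 the lowest, at -1.62 and -1.69.

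Likeness of pattern was measured as Pearson's r on log2(TPM + 1) over the 9 libraries, among named genes of at least 5 TPM on average, and is given as a description, since the libraries share ages and the scaling to a common total. Nearest to CKM were RENBP (r = 0.942), PRDX5, a peroxiredoxin (0.922), and GPX4, a glutathione peroxidase (0.899). RENBP had 11.3, 9.28 and 11.3 TPM at P0, 18.4, 22.5 and 15.7 TPM at P7 and 27.5, 25.2 and 27.7 TPM at P15. Nearest to CKB were HSD17B14 (0.913), PNKD (0.902) and RTN4IP1 (0.897). HSD17B14 had 63.9, 45.2 and 66.4 TPM at P0, 34.3, 36.7 and 18.1 TPM at P7 and 45.0, 31.1 and 32.6 TPM at P15, and like CKB it was highest among the P15 libraries in replicate 1. Nearest to CKMT2 were NDUFA4 (0.969) and COX5B (0.959), both of the respiratory chain, and MRPL28 (0.951), a mitochondrial ribosomal protein. Nearest to SLC6A8 was HEY2 (0.976), a transcription factor of ventricular muscle, and nearest to AMPD3 was LMOD2 (0.972), an actin filament protein. Among the members themselves r lay between -0.55 (CKB with AMPD3) and 0.56 (CKMT2 with GAMT), and was -0.47 for CKM with CKB.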

How the data were processed

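Poly(A) RNA-seq of left ventricle was used as TPM values that the authors deposited in a single table of 9 libraries. The software listed, per the submitters' processing notes, comprises kallisto 0.43.1, HISAT2 2.0.5 and Trimmomatic 0.33, whose use is not described. Details not given in the sources used here include the genome build, the annotation and the handling of reads common to similar genes, so creatine kinase genes could share reads.

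Genes with at least 1 TPM in at least 3 libraries were tested (12268). A limma 3.58.1 model in R 4.3.3 with 1 mean per age was fitted to log2(TPM + 1) of all 9 libraries, with empirical Bayes moderation and a mean-variance trend. Fold changes on that scale understate those of low genes. P-values were adjusted by Benjamini-Hochberg over all genes tested, with a threshold of 0.05. An exact permutation test of 3 against 3 libraries was not used, since it cannot reach that threshold. The limma step was tested on simulated data.

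The members and gene lists were chosen with earlier results of these data known. All members are described. From each list the most abundant gene and up to 2 genes per comparison with the smallest adjusted p were named, and for each member the 3 genes most like it, of which a part is given. The alternatives tried were the pseudocounts 0.1 and 5, testing every gene, testing genes averaging 5 TPM or more, 4 other scalings, no trend, a robust fit, 2 ages only, the replicate number as a block, and each library left out in turn. The labels do not say what the replicate numbers mean, and the main fit did not pair the libraries by them.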

Additional observations from a re-analysis of the deposited data

Results flagged for a closer look

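The change of CKB differed between the first and the second postnatal week by a test whose call depended on the processing. The first step minus the second was -3.68 on the log2(TPM + 1) scale (limma adjusted p = 0.0371). CKB was lower in 3 of 3 P7 libraries than in any P0 library, while 1 of the 3 P15 libraries lay well above the P7 range. That library, P15 replicate 1, had 111 TPM, against 26.4 and 39.8 TPM in P15 replicates 2 and 6. Without it the difference of steps was -3.10 (limma adjusted p = 0.0344). The call was lost in 12 of 20 alternatives (limma adjusted p from 0.0258 to 0.150 over all 20), including the fits without P0 replicate 4 (0.0797) or 6 (0.0957), without P7 replicate 2 (0.128), 5 (0.0512) or 6 (0.150), and without P15 replicate 6 (0.0550).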

How the results depend on the processing

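Over 35 results of the 7 tested members there were 711 alternative values, of which 656 kept direction and side of the threshold, 24 lost a call, 3 gained one and 28 changed sign, all 28 among results that had not passed. The 3 of 7 calls kept in every alternative were CKM at P15 over P0, CKB at P7 over P0 and the F test of CKB. The 3 gains were AMPD3 at P7 over P0 without mitochondrial and the 20 most abundant genes (0.41) and at P15 over P0 with median-of-ratios scaling (0.32), and CKMT2 at P15 over P0 with quantile normalization (0.49, limma adjusted p = 0.0460). Of 26 calls of other named genes, 6 were kept in every alternative. The cause of these shifts was not tested. TPM keeps no depth, so counting error could not be given for low members (GATM, AMPD1, GAMT).

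Signs changed as follows on the log2 scale. With median-of-ratios scaling, AMPD3 was 0.056 at P15 over P7, and SLC6A8, GAMT and AK1 were 0.050, 0.15 and 0.10 at P15 over P0. Without mitochondrial and the 20 most abundant genes, CKMT2 was 0.023 at P7 over P0, and SLC6A8, GAMT and AK1 were 0.057, 0.19 and 0.11 at P15 over P0. Without the most abundant row GAMT and AK1 were 0.096 and 0.00957 at P15 over P0. With quantile normalization CKMT2 was 0.050 at P7 over P0, AMPD3 0.080 at P15 over P7, and SLC6A8, GAMT and AK1 0.088, 0.023 and 0.10 at P15 over P0. Leaving out a library turned CKMT2 at P7 over P0 (-0.38 to 0.11), GAMT at P7 over P0 (-0.33 to 0.031), P15 over P7 (-0.028 to 0.24) and P15 over P0 (-0.22 to 0.14), AK1 at P7 over P0 (-0.029 to 0.22), AMPD3 at P15 over P7 (-0.18 to 0.038) and the CKM difference of steps (-0.11 to 0.57).

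Counts of genes passing were 2031 (P7 over P0), 21 (P15 over P7), 2933 (P15 over P0), 236 (difference of steps) and 2705 (F test). For P7 over P0, P15 over P7 and the difference of steps, no filter gave 1296, 12 and 44, leaving out mitochondrial and the 20 most abundant genes gave 3588, 12 and 648, and quantile normalization gave 3562, 10 and 553. Median-of-ratios scaling gave 3786, 11 and 594, and 4072 by the F test. For P15 over P7 and the difference of steps, a pseudocount of 0.1 gave 5 and 141, and a mean of 5 TPM or more gave 1 and 89. Without the most abundant row P7 over P0 gave 3435 and the difference of steps 491, and with those ages alone P15 over P7 gave 2. Leaving out 1 library at a time gave 392 to 2688, 0 to 52, 816 to 3266, 3 to 734 and 456 to 3175 genes in the order above, with the lowest counts of P7 over P0, P15 over P0 and the F test without P0 replicate 6.

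Replicate numbers are shared by 2, 2 and 1 pairs of libraries between ages. Same-numbered libraries had correlations of deviations from their age means of -0.213 to 0.17, beside -0.335 to 0.372 for different numbers. With 5 same-numbered pairs, and deviations taken from means of 3 libraries, these values cannot show whether a shared number marks anything else shared. With the replicate block the counts were 857, 126, 919, 28 and 807, CKM at P7 over P0 had a limma adjusted p of 0.0885 and its F test 0.0737. AK1 was -0.13 at P7 over P0, and GAMT and AMPD3 were -0.056 and 0.046 at P15 over P7.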
